A study of Mus musculus with 8 samples.

Results

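Irf1 and Il12b, 2 inflammatory genes of mouse chromosome 11, were followed through 8 chromatin maps of bone marrow-derived macrophages. Their members were chosen by position: every peak that the deposited lists place in 100 kb around Irf1, from 53.54 to 53.64 Mb of chromosome 11 (mm8), or in 120 kb around Il12b, from 44.16 to 44.28 Mb. The windows held 113 of the 364537 listed peaks, 77 of them in the Irf1 window and 36 in the Il12b window.

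The macrophages, phagocytes grown in culture from marrow precursors of 6- to 8-week-old Fvb females, were either stimulated with lipopolysaccharide (LPS) and interferon gamma or left untreated (0 h). Chromatin immunoprecipitation and sequencing (ChIP-seq) mapped RNA polymerase II (Pol II) at 0, 2 and 4 h, the promoter mark H3K4me3 and the Polycomb mark H3K27me3 at 4 h and in untreated cells, and the H3K27 demethylase Jmjd3 at 2 h. Each combination was 1 library, from 500000000 cells for Jmjd3 and 100000000 for the others, with over 10000000 uniquely mapped tags according to the labels. No difference between times therefore has a replicate check, no p-value was computed, and a mark in fewer cells cannot be told apart from less of it per cell.

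The value of a peak is its height, the number of overlapping fragments or tags that the authors gave at that place. Each Pol II, Jmjd3 or H3K27me3 peak is listed as 1 base position, whereas an H3K4me3 peak is a cluster that spans a stretch. The lists held 4398 to 89093 peaks, their lowest heights were 9 to 11, and exact depths were unknown, so heights were ranked or divided within 1 list and never across lists. A gene with no listed position lies below that list's lowest height, which does not show that the protein or mark is absent.

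IRF1 is a transcription factor that interferon gamma induces and that inflammatory signals induce through NF-kappaB. In macrophages it is known to activate a later set of genes, of which Il12b is one. Il12b encodes the p40 chain that the cytokines interleukin-12 and interleukin-23 share, and its transcription is known to follow that of the early response genes. H3K4me3 marks promoters, often before they are transcribed, Pol II along a gene marks transcription, and H3K27me3 marks repressed chromatin from which Jmjd3 can remove methyl groups.

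The promoters of both genes are shown because they differ in base composition and in 1 searched motif, whose consensus form only 1 of them holds. Both are the 250 bases before the annotated start, plus strand, from RefSeq on GRCm38.p6, another build than mm8, whose coordinates cannot be compared with those of the peaks: chr11:53769764-53770013 for Irf1 (the first of 2 annotated starts) and chr11:44399813-44400062 for Il12b. Capitals mark a match, on either strand, to the consensus kappaB site, which binds NF-kappaB.
Irf1: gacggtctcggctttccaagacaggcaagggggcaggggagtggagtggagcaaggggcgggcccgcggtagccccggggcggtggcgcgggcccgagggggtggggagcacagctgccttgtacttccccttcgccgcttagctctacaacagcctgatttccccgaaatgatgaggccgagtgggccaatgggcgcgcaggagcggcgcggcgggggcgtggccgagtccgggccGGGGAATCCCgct
Il12b: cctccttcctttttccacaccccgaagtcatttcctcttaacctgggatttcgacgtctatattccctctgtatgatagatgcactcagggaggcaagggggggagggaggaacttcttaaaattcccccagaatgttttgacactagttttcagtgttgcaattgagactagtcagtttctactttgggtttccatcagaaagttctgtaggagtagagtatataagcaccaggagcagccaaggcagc

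The Irf1 sequence held 1 kappaB site, at bases -13 to -4 counted back from the start, which matched on both strands. Among 32851 promoters of the same length, 7.25% held that motif. The Il12b sequence held no match to that consensus. Variants of the kappaB site were not searched, so whether Il12b holds one is not known here. Neither promoter held the interferon-stimulated response element, found in 2.98% of all promoters. The AP-1 site TGANTCA, in 6.75% of promoters, was in neither. The TATA box was searched only as TATAAA, not in variants such as the tatataa near the end of the Il12b sequence. TATAAA was in 12.4% of promoters and in neither of these. These letters being absent from the window says nothing about the factors, and other elements that these promoters may hold are not reported here. The 2 promoters also differed in composition: Irf1 had 25 CpG dinucleotides, more than 89.3% of promoters, while Il12b had 3, more than 29.0%, against a median of 6. Their GC content was 71.2% for Irf1 and 46.0% for Il12b.

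H3K4me3 separated the genes before stimulation and after it. The Irf1 window held 5 clusters at 4 h and 5 in untreated cells, and the Il12b window held 1 at each time. The tallest and widest Irf1 cluster, from 53611613 to 53623202 at 4 h, had a height of 244 at 4 h and 229 at 0 h, taller than 95.1% and 93.0% of the clusters of those lists. It is taken here for Irf1 because of that height and because Pol II positions ran on to its right, the direction in which a plus-strand gene is read. No mm8 gene annotation was used. The single Il12b cluster, from 44241335 to 44243412 at 4 h, had heights of 14 at 4 h and 16 at 0 h, close to the lowest listed height of 11 and taller than 10.7% and 16.1% of clusters.

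Within 1 library the Irf1 cluster was 17.4 times as tall as the Il12b cluster at 4 h (95% exact interval 10.2 to 32.4) and 14.3 times at 0 h (8.63 to 25.5). These intervals, as all others of heights here, are exact binomial ones that cover counting error only, and those of the 2 times overlapped. Every cluster of both windows at 4 h overlapped one of untreated cells, where 5.07% of all 4 h clusters had no partner. Il12b thus carried listed H3K4me3 in untreated cells, low in its list.

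Width set the Irf1 cluster apart more than height did. It covered 11.6 kb at 4 h, against 8.34 kb at 0 h, and was wider than 99.5% and 98.0% of the clusters of those lists. Its left edge differed by 6 bp between the times, while its right edge lay 3248 bp further right at 4 h. Of 17651 clusters that matched 1 to 1 between the lists, 0.578% were widened by at least as much, and the median difference was -0.075 kb. The Il12b cluster covered 2.08 kb at 4 h and 1.79 kb at 0 h, and 29.1% of matched clusters were widened by at least as much.

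**Figure D1:**
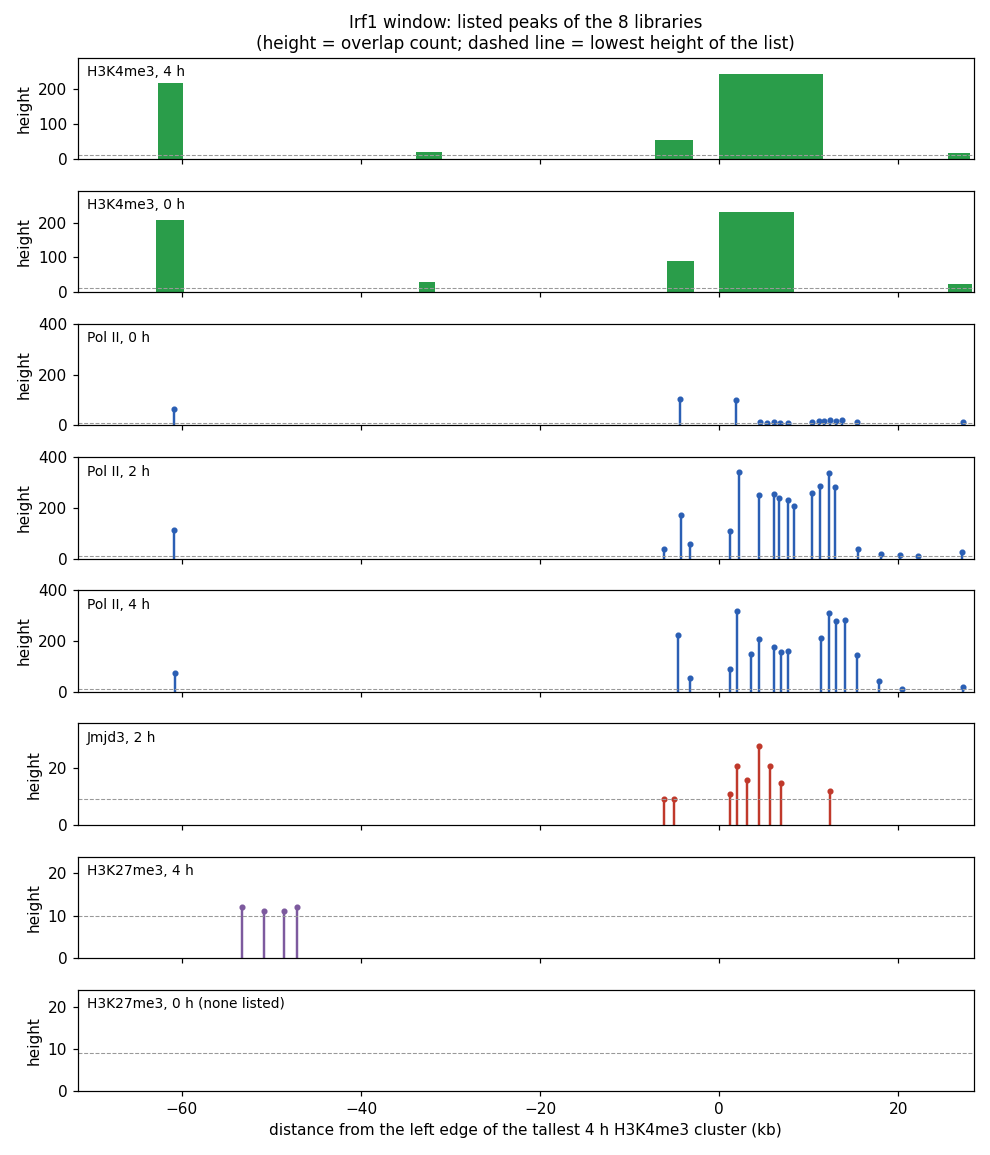
Listed peaks in the Irf1 window for each of the 8 libraries, by distance in kb from the left edge of the tallest 4 h H3K4me3 cluster (x) and height as overlap count (y, scaled per antibody). Boxes are H3K4me3 clusters, stems are single positions, and dashed lines are the lowest height of each list. Pol II stems 2 to 15 kb right of the tallest one in that cluster reach 22, 337 and 312 at 0, 2 and 4 h.

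The other 4 H3K4me3 clusters of the Irf1 window differed in what they held. The leftmost, whose left edge was 62.7 kb left of that of the Irf1 cluster, had heights of 219 at 4 h and 208 at 0 h. It held 1 Pol II position in each list, with heights of 66 at 0 h, 114 at 2 h and 73 at 4 h, and no Jmjd3. In RefSeq's gene order the protein-coding genes left of Irf1 are Il5 and then Rad50, and the next on the right is Slc22a5. Which of these belongs to which cluster was not tested. The second cluster, 33.8 kb left, had heights of 22 at 4 h and 29 at 0 h and held no position of any other list. The rightmost, 25.5 kb right of the Irf1 cluster's left edge, had heights of 18 at 4 h and 23 at 0 h. Its single Pol II position at 0, 2 and 4 h had heights of 15, 27 and 17.

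The third cluster, whose left edge lay 7.16 kb left of that of the Irf1 cluster, stood out for Pol II. Its H3K4me3 height was 54 at 4 h and 90 at 0 h, which was 0.221 (0.162 to 0.298) and 0.393 (0.304 to 0.504) of the Irf1 cluster in the same library. It nonetheless was wider at 4 h, at 4.24 kb against 2.95 kb, and 5.82% of matched clusters were widened by at least as much. Its tallest Pol II position had heights of 104 at 0 h, 173 at 2 h and 224 at 4 h.

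In untreated cells Pol II was listed at Irf1 and not at Il12b. The Irf1 window held 16 Pol II positions at 0 h and the Il12b window none, where the list's lowest height was 9. Across the genome, 60.4% of untreated H3K4me3 clusters held Pol II at 0 h, and so did 29.4% of the 3870 clusters no taller than that of Il12b. The Pol II position nearest to the Il12b cluster at 0 h lay 70.4 kb to its right and, on the left, 650.0 kb away. Of the 5 Irf1 window clusters of untreated cells, 4 held Pol II at 0 h. At 4 h the same number of the 5, and the Il12b cluster, held Pol II of that time, against 63.7% of all 4 h clusters.

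Before stimulation, Pol II at Irf1 sat at the front of the gene's cluster with low positions behind it. The tallest position of the Irf1 cluster at 0 h, 53613506, had a height of 101, taller than 98.3% of the list. The 12 positions 2 to 15 kb to its right had heights of 9 to 22, with a median of 14.5. The tallest of them, 22 at position 53623920, was 0.218 (0.131 to 0.348) of the front position.

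At 2 h 1 position to the right was nearly as tall as the front, and the others were lower. The front position, 53613823, had a height of 340, the 58th tallest of 57200. The 10 positions 2 to 15 kb to its right had heights of 38 to 337, with a median of 253. The tallest, 337 at position 53623857, was 0.991 (0.850 to 1.16) of the front. At 4 h the front position, 53613543, had a height of 320. The tallest of the 9 positions to its right, 312 at position 53623904, was 0.975 (0.832 to 1.14) of it.

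For 2 and 4 h the ratios lay outside the interval of 0 h, and each time is 1 library. As background, the same ratio was taken right and left of every 4 h H3K4me3 cluster with Pol II at all 3 times, which gave 6947 flanks with listed positions in all 3 lists. It was at least 2 times as high at 2 h as at 0 h in 11.8% of them, with a median of 0.813 times, and 9.75% reached 2 times at 4 h. At Irf1 it was 4.55 times as high at 2 h and 4.48 times at 4 h, which 1.71% and 1.35% of flanks matched or passed. The Irf1 ratio itself was low at 0 h, where 88.5% of flanks had as high a ratio and the median was 0.667. After stimulation as high a ratio was common, in 33.7% of flanks at 2 h and 34.4% at 4 h. The highest heights of 4 of the 8 lists were 397 to 402, Pol II at 2 and 4 h among them. Counts that stop near such a value would draw ratios of tall positions towards 1, and the part of this in the Irf1 ratios was not tested.

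**Figure D2:**
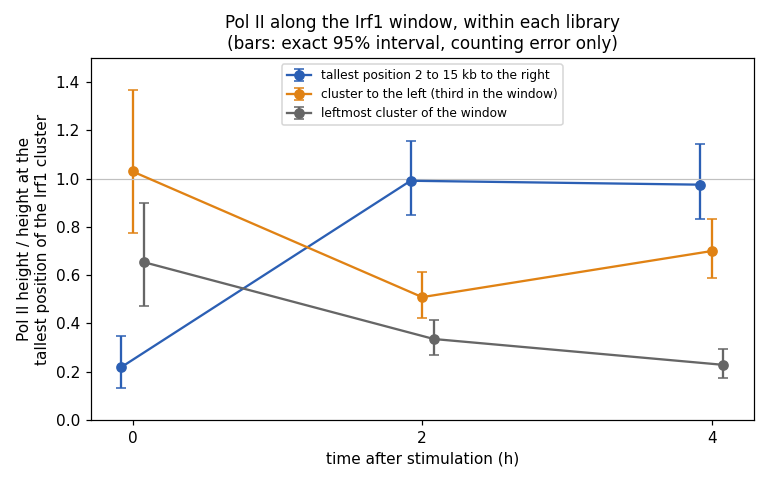
Pol II height divided by that of the tallest position of the Irf1 cluster in the same library (y), at 0, 2 and 4 h (x). Points are the tallest position 2 to 15 kb to the right, the third cluster and the leftmost cluster of the window, with exact 95% intervals of counting error. The right flank stands at 0.218, 0.991 and 0.975, and the third cluster at 1.03, 0.509 and 0.700.

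Pol II to the right of the front was not level. Since no mm8 annotation was used, which of these positions lie within the gene is not known here. At 2 h the 5 positions from 53616015 to 53619963 had heights of 209 to 254. At 4 h the 4 positions from 53616005 to 53619313 had 155 to 207. These were 0.484 (0.397 to 0.589) to 0.647 (0.540 to 0.773) of the front. At 2 h the ratios were 0.615 (0.515 to 0.732) to 0.747 (0.632 to 0.882). At most places listed at both times the intervals of 2 and 4 h overlapped. Farther right, at 1 place, the ratio was higher at 4 h than at 2 h. About 13 kb to the right of the front, the positions 53626990 at 0 h, 53627064 at 2 h and 53627001 at 4 h had heights of 12, 38 and 145. These were 0.119 (0.0594 to 0.217), 0.112 (0.0777 to 0.157) and 0.453 (0.370 to 0.553) of the front of their own library. The tallest flank position lay 10.03 to 10.4 kb right of the front at all 3 times, and a Jmjd3 position at 53623949 lay 92 bp or less from it.

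Relative to the front of Irf1, Pol II at both other clusters with tall positions was highest in untreated cells. Pol II at the third cluster was 1.03 of the Irf1 front at 0 h (0.775 to 1.37). It was 0.509 of it at 2 h (0.421 to 0.613) and 0.700 by 4 h (0.587 to 0.833). At the leftmost cluster it was 0.653 (0.472 to 0.900), 0.335 (0.269 to 0.416) and 0.228 (0.174 to 0.295). Untreated cells thus had about as tall a Pol II position at the third cluster as at Irf1 itself.

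Pol II places new after stimulation made up a smaller share of the Irf1 window than of the whole list. The intervals treat neighbouring positions of 1 locus as independent, which they are not, so whether the shares differ cannot be decided here. Of the Irf1 window's 20 positions at 2 h, 7 had none under 500 bp away at 0 h (35.0%, 15.4 to 59.2), against 49.6% of the whole list. At 4 h, 5 of 18 had none at 0 h (27.8%, 9.69 to 53.5), against 45.2%. All 3 Il12b positions at 2 h and all 7 at 4 h had none at 0 h, which follows from the empty window at that time. Of the 16 Irf1 positions at 0 h, 2 had no partner at 2 h (background 48.2%) and 2 had none at 4 h (background 43.4%). Against 2 h, 2 of 18 Irf1 positions (background 32.3%) and 4 of 7 Il12b positions at 4 h were new.

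By summed Pol II height the Irf1 window was far up in the genome and, after stimulation, the Il12b window in its middle. The genome was divided into stretches as long as each window, and those with an H3K4me3 cluster were kept. The Pol II heights of the Irf1 window at 0, 2 and 4 h summed to 466, 3285 and 2904, over 16, 20 and 18 listed positions of all its clusters. Of 10126 stretches of 100 kb, 5.30% had as high a sum at 0 h. At 2 h 0.0790% had, and at 4 h 0.158%. The Il12b window summed to 43 at 2 h and 103 at 4 h, and 62.6% and 45.2% of 9131 stretches of 120 kb had as high a sum. At 0 h it held no Pol II position, as did 25.2% of those stretches.

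At Il12b, Pol II was listed after stimulation, at low heights. At 2 h the positions were 44243572 with a height of 19, 44245376 with 12 and 44256010 with 12. At 4 h there were 3 near the H3K4me3 cluster, 44243541, 44244772 and 44245808, with heights of 19, 14 and 19. A further 4 lay to the right, 44253638, 44254657, 44256036 and 44258506, with heights of 12, 14, 11 and 14. The heights of 19 were above 53.0% of the list at 2 h and 47.3% at 4 h, and the height of 11 at 4 h was the lowest of its list.

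The first Il12b position lay just right of the 4 h H3K4me3 cluster, by 160 bp at 2 h and 129 bp at 4 h, and a position within 250 bp counts as belonging to a cluster. With it, Il12b is a cluster with Pol II at 2 and 4 h and not at 0 h, as are 5.23% of 4 h clusters and 6.44% of the 2563 no taller than that of Il12b. With positions inside the 4 h cluster alone, Il12b holds no Pol II at any time. Both positions lay inside the cluster of untreated cells, which ended further right, at 44243646.

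**Figure D3:**
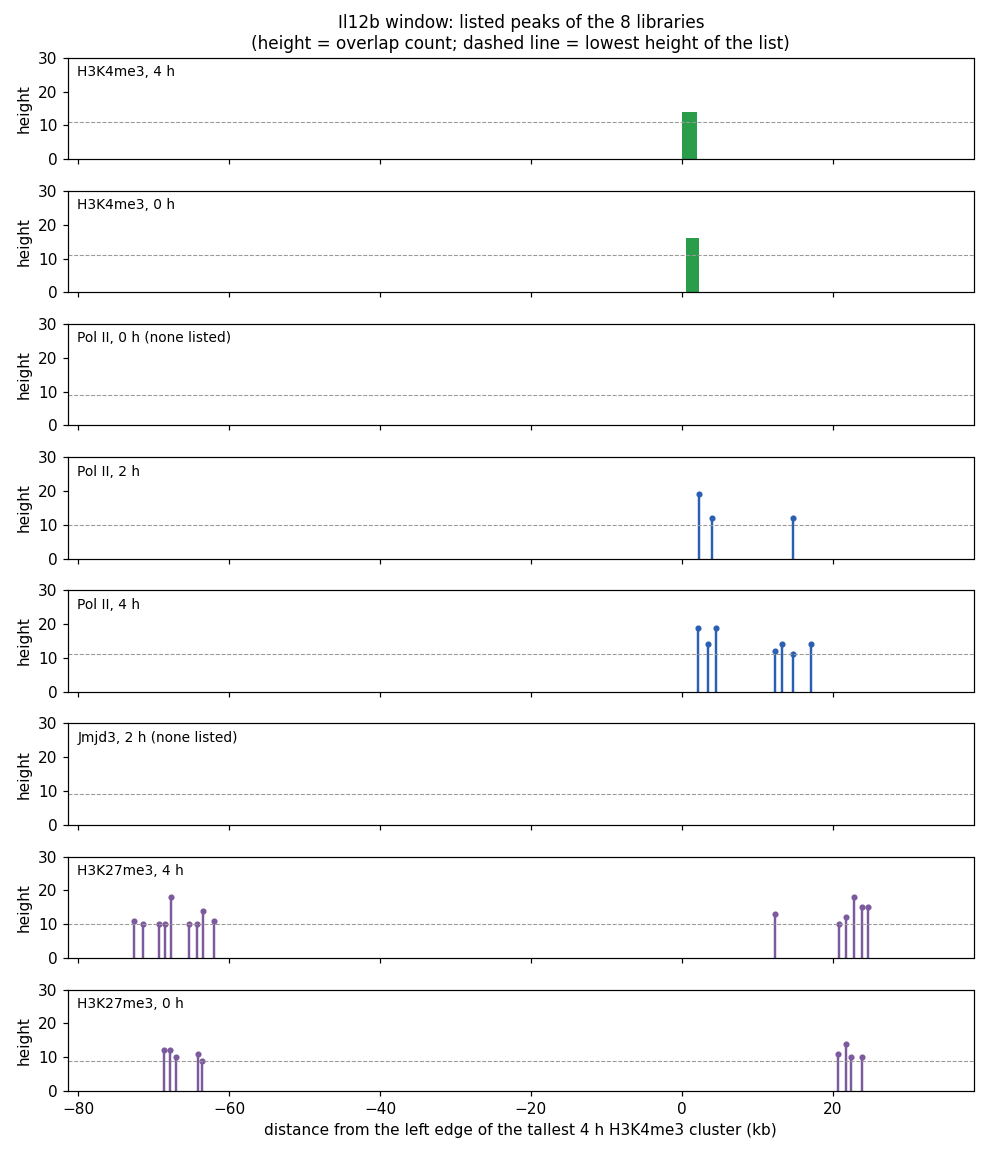
Listed peaks in the Il12b window for each of the 8 libraries, by distance in kb from the left edge of the 4 h H3K4me3 cluster (x) and height as overlap count (y). Boxes are H3K4me3 clusters, stems are single positions, and dashed lines are the lowest height of each list. Pol II is listed 3 times at 2 h and 7 times at 4 h and H3K27me3 lies in 2 groups away from the cluster, while Pol II at 0 h and Jmjd3 have no stem.

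Set side by side in 1 library, the front of Irf1 was 17.9 times as tall as the tallest Pol II position of the Il12b cluster at 2 h (11.3 to 30.1) and 16.8 times at 4 h (10.6 to 28.3). These intervals overlapped. The Il12b window held 7 listed positions at 4 h, against 3 at 2 h, and its tallest height was 19 at both times.

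Jmjd3, mapped at 2 h, was listed 9 times in the Irf1 window and not once in the Il12b window. From left to right the Irf1 heights were 9 and 9 at the third H3K4me3 cluster, then 11, 21, 16, 28, 21 and 15 inside the Irf1 cluster, and 12 just beyond its right edge. The tallest, at position 53616058, was above 96.0% of the list, whose lowest height was 9. It lay 43 bp from a Pol II position of 2 h with a height of 252. The Jmjd3 positions thus ran along the cluster, and the tallest lay about 4.45 kb inside its left edge. A Jmjd3 position of height 21, at 53613624, lay 199 bp from the tallest Pol II position of 2 h. Whether Jmjd3 was highest there or behind it was not tested, and no interval was computed for these low counts.

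The number of Jmjd3 positions was high for 1 place. At least 6 Jmjd3 positions were held by 0.0662% of 4 h H3K4me3 clusters, that is 13 of 19631, and at least 1 by 14.7%. The Irf1 cluster was wider than 99.5% of 4 h clusters, and this background was not matched for width. Among the 956 clusters at least as tall as that of Irf1, 32.8% held Jmjd3. Of the 100 kb stretches, 0.178% held 9 or more and 73.7% held none. Of the 9 positions, 7 had a Pol II position under 500 bp away at 2 h, against 80.7% of all Jmjd3 positions, and 5 had one at 0 h, against 67.0%. Of the 9, 8 lay in 4 h H3K4me3 clusters (84% of the whole list) and 7 in clusters of untreated cells (83.3%). These shares were near those of the whole list. Of the 20 Pol II positions at 2 h, 7 had Jmjd3 under 500 bp away, against 6.25% of all Pol II positions of that time. That share depends on how many Jmjd3 positions the window held, for which the background was not matched, so it is not a separate result. For Il12b, 71.4% of the 120 kb stretches likewise held no Jmjd3, and the nearest position lay 70.3 kb to the right of the cluster.

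H3K27me3 was listed away from both genes' promoter clusters. The Irf1 window held 4 positions at 4 h and none at 0 h. They had heights of 12, 11, 11 and 12, lay 47.2 kb or more to the left of the Irf1 cluster, and had no partner at 0 h, as 51.7% of all 4 h positions. The Il12b window held 15 positions at 4 h, of height 10 to 18, and 9 at 0 h, of height 9 to 14. Of the 4 h positions, 7 had none under 500 bp away at 0 h, and of the 0 h positions, 1 had none at 4 h, where the whole list had 28.3%.

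Those Il12b positions fell in 2 groups at both times. The left group held 9 positions at 4 h and 5 at 0 h and ended 62.0 kb left of the cluster at 4 h and 63.5 kb at 0 h. The right group began 10.3 kb right of the cluster at 4 h and 18.6 kb at 0 h. That 4 h edge is the single position 44253688, of height 13, and the next, 44262186, lay 18774 bp from the cluster. The 4 h list is longer, 89093 positions against 59684, and the window took 1.68 of every 10000 positions at 4 h and 1.51 at 0 h. As many positions or more were in 17.1% of the 120 kb stretches at 4 h and in 18.4% at 0 h. No H3K27me3 position lay within 250 bp of a 4 h H3K4me3 cluster in either window, while 24.5% of untreated H3K4me3 clusters in the genome held H3K27me3 at 0 h.

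At 1 place of the Il12b window H3K27me3 and Pol II were listed together. The H3K27me3 position 44253688 of 4 h, with a height of 13, lay 50 bp from the Pol II position 44253638 of 4 h, with a height of 12. It had no partner in the untreated list. Of all Pol II positions at 4 h, 3.2% had an H3K27me3 position of 4 h under 500 bp away, and 1 of the 7 in the Il12b window and 0 of the 18 in the Irf1 window did. Both heights were near the lowest of their lists, 10 for H3K27me3 and 11 for Pol II.

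**Figure D4:**
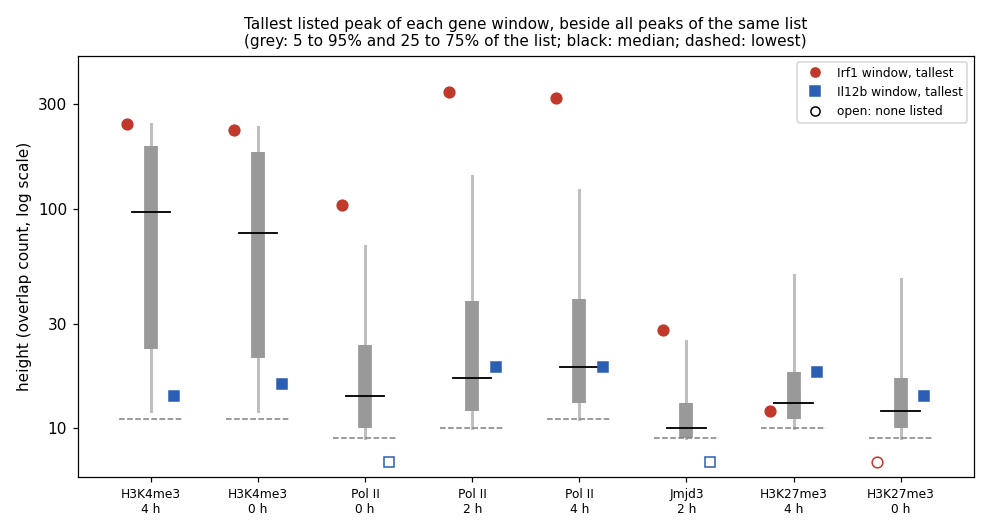
Tallest listed peak of the Irf1 window (circles) and the Il12b window (squares) in each list, as overlap count on a log axis, with open symbols where none is listed. Grey bars span 5 to 95% and 25 to 75% of the list, black lines are medians and dashed lines the lowest heights. Irf1 reaches 340 for Pol II at 2 h, where Il12b reaches 19, while for H3K27me3 at 4 h Irf1 reaches 12 and Il12b 18.

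The tallest Irf1 cluster therefore had Pol II at all 3 times, Jmjd3 and no H3K27me3, a combination that 11.2% of 4 h clusters shared. The Il12b cluster had Pol II at 2 and 4 h and none listed at 0 h, no Jmjd3 and no H3K27me3, which 3.05% shared.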

How the data were processed

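Each of the 8 libraries has 1 deposited list, whose values, per the file headers, are whole-number overlap counts at each peak, a signal for which neither headers nor labels mention scaling to depth or a control. The build is mm8, per the submitters' processing notes, and the aligner, peak caller, threshold and control were not given in the sources used here. Greater depth can add low peaks to a list.

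All members of both windows are reported. Positions under 500 bp apart counted as shared, clusters sharing 1 bp as the same, and positions within 250 bp of a cluster as belonging to it. Heights were compared within a list with exact Clopper-Pearson intervals at 95%. Windows, genes and lists were chosen with earlier results of these data known, and the right-flank ratio (2 to 15 kb) and the comparison with equal stretches of genome after their values were seen. Macrophage markers and gene lists were not analysed here, since no mm8 annotation was used, and 1 promoter motif is not reported here. Overlap counting was tested on simulated lists. Values were computed with scipy 1.17.1, pandas 2.3.3 and numpy 2.4.6 in Python 3.11.15 and drawn with matplotlib 3.10.9.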

Additional observations from a re-analysis of the deposited data

How the results depend on the processing

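Of 115 values under alternatives, 83 stayed the same and 32 did not. The same meant within the interval of the reported value or, where it had none, within 1.5 times. Counts and shares have no sign that could reverse, and some counts fell to 0 or rose from 0. The share of clusters with the Il12b combination stayed the same with positions inside the cluster only, but the Il12b cluster itself then held no Pol II. With peaks above their list's median, the Irf1 window kept 10 Pol II positions at 0 h, 0 H3K27me3 positions at 4 h and 2 H3K4me3 clusters at 4 h and 3 at 0 h. The Il12b window then had 1 Pol II position at 2 h and 0 at 4 h, 5 H3K27me3 positions at 4 h and 1 at 0 h, and 0 clusters at either time. Windows narrowed by 20 kb on each side, which end between Irf1 Pol II positions, held 7, 10 and 9 Irf1 Pol II positions at 0, 2 and 4 h, 3 Irf1 clusters at each time, and 1 Il12b H3K27me3 position at 4 h and 0 at 0 h. Widened by 50 kb, they held 1 Irf1 H3K27me3 position at 0 h and 17, 25 and 19 Irf1 Pol II positions at 0, 2 and 4 h, and for Il12b 1, 4 and 9 Pol II positions and 2 Jmjd3 positions. Merging positions under 1 kb apart left 7 and 13 Irf1 Pol II positions at 0 and 2 h and 5 Il12b H3K27me3 positions at 0 h. The Irf1 share of both genes' H3K4me3 height was 94.6% at 4 h and 93.5% at 0 h, and 97.5% and 97.3% summed over the windows. For Pol II it was 94.7% at 2 h and 94.4% at 4 h, 99.1% and 98.7% summed in the cluster, and 98.7% at 2 h summed in the window, where sums also depend on how many positions were listed. Among clusters above the median height, 20.6% had the Irf1 combination and 1.83% that of Il12b. The mean in place of the tallest flank position, chosen after seeing the data, gave right-flank ratios of 0.1485 at 0 h, 0.702 at 2 h and 0.669 at 4 h. No paired analysis was possible because each group is 1 library and no result comes from a test. Low heights at Il12b, within a few counts of the lowest listed, limit what its lists can show.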

Other observations

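The H3K4me3 clusters of 4 h whose tallest heights over the 8 lists were most like those of the Irf1 cluster lay on chromosome 9 (45014917 to 45021125), chromosome 11 (119205526 to 119213649) and chromosome 7 (15077722 to 15082275). Likeness was the Euclidean distance over log2(1 + height), each list divided by its SD, and these distances were 0.11, 0.19 and 0.23. Their Jmjd3 heights were 26, 32 and 26, and the first had Pol II heights of 113 at 0 h, 310 at 2 h and 316 at 4 h. Those most like Il12b lay on chromosome 13 (37587567 to 37589587), chromosome 5 (44136269 to 44137290) and chromosome 6 (57636795 to 57638028), with distances of 0.11, 0.15 and 0.15. Each had H3K4me3 heights of 14 or 15 at 4 h, Pol II at 2 and 4 h and none listed at 0 h, and no Jmjd3. Clusters like either gene were chosen by these same heights, so their likeness follows from the choice.

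The next H3K4me3 cluster right of Il12b, outside its window, had its left edge 70.8 kb right of that of the Il12b cluster and had a height of 222 at 4 h and 192 at 0 h. Its Pol II heights were 57 at 0 h, 154 at 2 h and 200 at 4 h, and it held a Jmjd3 position of height 20. In RefSeq's gene order Ublcp1 follows Il12b on that side, and the assignment of the cluster to that gene was not tested.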
